A study of Homo sapiens with 3 samples.

Results

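The proteins of the small ribosomal subunit were followed through 3 lists of ribosome peaks by taking every gene whose symbol is RPS and a number, together with GNB2L1 (RACK1), a further protein of that subunit. Kinases of the RPS6K family, pseudogenes and RPS19BP1, which encodes a binding partner of RPS19, were left out. The rule found 29 genes among the 3580 that had a peak in any list, with 28 of them present in the empty vector list, 29 in the wild-type DDX3X list and 25 in the DDX3X G325E list. The rule did not use peak numbers or positions beyond the presence of a peak.

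Ribosome-protected fragments had been prepared from HEK293T cells, a human embryonic kidney line, 24 h after transfection. The constructs were an empty vector, FLAG-tagged wild-type DDX3X, which is a DEAD-box RNA helicase, and its FLAG-tagged G325E form, a substitution found in medulloblastoma. Per the labels, all cells received harringtonine, which stalls initiating ribosomes, at 2 µg/ml for 90 s and then cycloheximide, which arrests elongating ribosomes, at 100 µg/ml, whereas the study's methods mention cycloheximide. Each construct had 1 library and no replicate, so differences were not tested and have no replicate error. Peaks depend on the amount of an mRNA as well as on the ribosomes it carries, and the lists cannot tell these apart. The cell type given in the labels is neuronal, which is not what this line is usually called.

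Small-subunit proteins bind the ribosomal RNA that reads the message, and the subunit that they form scans the 5′-UTR for the start codon before the large subunit joins. Their mRNAs are short, abundant and, as a class, begin with a run of pyrimidines (the TOP motif) that couples their translation to growth signals. A DEAD-box helicase such as DDX3X is known to help the scanning subunit through structured 5′-UTRs, so where peaks fall on these mRNAs, from the start codon to the last exon, was the question asked of the members.

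The lists held 11219 (vector), 19920 (wild-type) and 15680 (G325E) peaks, without heights or read counts. The peak finder used a fixed coverage cut-off, so a list also depends on how deeply its library was sequenced. The lists do not hold that depth, the study's own read table gives G325E the fewest non-duplicate reads, and the part of depth in the differences was not tested. The peak numbering skipped 14.8% of numbers in vector, 13.5% in wild-type and 0% for G325E. Between neighbouring peaks of the same small-subunit gene 4 numbers were missing in vector, all on RPS15, 6 in wild-type, on RPS15, RPS19 and RPS21, and 0 in G325E. The check on the constructs gave 0 peaks on DDX3X in the vector list, against 32 (wild-type) and 9 (G325E). Peaks on the members had median lengths of 31, 29 and 31.5 bp.

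Of 28 members with a canonical transcript in the annotation, 17 had a peak over the start codon in all 3 lists. The start codons of the 4 of these with the most assigned peaks are shown because they are the positions at which initiating ribosomes are expected. Each lies in 30 nt of spliced GRCh37 sequence (9 nt before and 21 nt from the start codon, which is in capitals), read 5′ to 3′.
RPS7 (start codon chr2:3623200-3623202, plus strand): gagaaagccATGttcagttcgagcgccaag
GNB2L1 (start codon chr5:180670798-180670800, minus strand): gccgccgccATGactgagcagatgaccctt
RPS15 (start codon chr19:1438425-1438427, plus strand): tccggcaagATGgcagaagtagagcagaag
RPS14 (start codon chr5:149827294-149827296, minus strand): cgtgcagaaATGgcacctcgaaaggggaag

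The start codon was under a peak in 22 of the 27 members with any covered coding base in vector, 23 of 28 in wild-type and 18 of 25 in G325E. Over all genes with a covered coding base the percentages were 40.2% in vector, 38.5% in wild-type and 59% for G325E. Thus the members' shares were 81.5%, 82.1% and 72.0%, all above those of genes at large, and the vector to G325E change ran downwards for the members and upwards for all genes. Peaks covered 51.1%, 58.0% and 35.2% of the members' coding bases and 6.99%, 12.1% and 7.99% of those of other genes with a covered base. Any coding position of a member was thus more often under a peak, and the part of this in the start-codon shares was not tested. The start codon lay under a peak in vector and wild-type but not in G325E for 4 members, RPS15A, RPS16, RPS24 and RPS26. It lay under no peak in any list for RPS4X, RPS6 and RPS27L. Among the members named here, it lay under a peak in G325E only for RPS12, in vector only for RPS10 and in wild-type only for RPS19. Reading the first 5 bases of the canonical transcripts, 21 of 28 members (75.0%) began with C followed by pyrimidines only, as did 72.1% of 43 large-subunit genes and 4.60% of all protein-coding genes. The members' 5′-UTRs were 23 to 249 nt long with a median of 40 nt.

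Peaks on the members made up 1.85% of the vector list (208 peaks, 95% Wilson interval 1.62 to 2.12%), 1.14% of the wild-type list (227, 1.00 to 1.30%) and 0.982% of the G325E list (154, 0.839 to 1.15%). The intervals cover counting error only. Thus the vector share was the highest of the 3, and the intervals of wild-type and G325E overlapped. Large-subunit genes (43 with a peak) ran in the same order, holding 2.60% (vector), 1.68% (wild-type) and 1.46% (G325E).

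**Figure D1:**
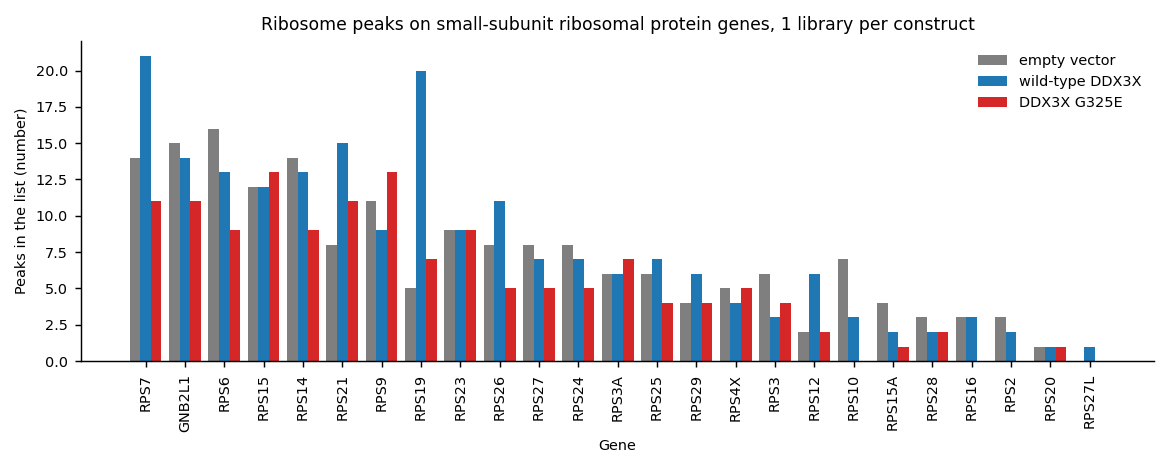
Number of ribosome peaks (vertical axis) assigned to each of 25 of the 29 small-subunit genes (horizontal axis, ordered by the sum over lists) in the vector, wild-type DDX3X and DDX3X G325E lists, 1 library each. By assignment RPS7 stood first with 14, 21 and 11 peaks, and RPS10, RPS16, RPS2 and RPS27L had 0 in G325E. Peaks that lay inside RPS2 had been annotated to other genes and are not counted.

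RPS7 (chromosome 2, 3622850 to 3628510, GRCh37), a protein of the subunit body needed for its assembly, held the most assigned peaks over the 3 lists together. It had 14 in vector, 21 in wild-type and 11 for G325E. GNB2L1 (chromosome 5, 180663897 to 180670906), the scaffold on the head of the subunit, held 15, 14 and 11. Inside its canonical transcript lay 13, 19 and 16 peaks, of which 0, 6 and 5 had been annotated to SNORD96A. By place, vector was thus the lowest list for GNB2L1. RPS6 (chromosome 9, 19375713 to 19380234), the substrate of the S6 kinases, held 16, 13 and 9. None of these 3 was at least 2-fold apart between G325E and wild-type once numbers were scaled to the length of the lists. The log2 ratios were -0.56 for RPS7, 0.01 for GNB2L1 and -0.16 for RPS6. The order depended on the assignment. Inside the canonical transcript, RPS7 held 13 (vector), 18 (wild-type) and 10 (G325E) peaks and RPS2 held 24, 26 and 14, so by place RPS7 was not first.

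With G325E set against wild-type, 22 members had at least 5 peaks over both lists. Of these, 3 were at least 2-fold lower in G325E and 0 at least 2-fold higher, where 28% and 25% of 2528 genes passed the same bounds. Both shares of the members were thus below the background. They included RPS19, the head protein mutated in Diamond-Blackfan anaemia, with 5 (vector), 20 (wild-type) and 7 (G325E) peaks (log2 ratio -1.11 against wild-type), and RPS12, with 2, 6 and 2 (-1.03). RPS26, another Diamond-Blackfan gene whose product sits at the messenger exit, came next with 8, 11 and 5 peaks (-0.72). For RPS19 the wild-type list stood apart and vector and G325E were close, with 15 more peaks in wild-type than in vector. Both calls depended on the assignment. Inside the canonical transcript, whatever their annotation, lay 5, 13 and 7 peaks for RPS19 and 2, 3 and 4 for RPS12, of which 2, 2 and 3 had been annotated to SNORD101, so by place G325E was not 2-fold lower in either.

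At the other end of the order were RPS9, which takes part in decoding fidelity, with 11 (vector), 9 (wild-type) and 13 (G325E) peaks (log2 ratio 0.85), RPS3, at the messenger entry, with 6, 3 and 4 (0.71), RPS4X, encoded on the X chromosome, with 5, 4 and 5 (0.63) and RPS3A with 6, 6 and 7 (0.55). None of these reached 2-fold. Inside RPS3 lay 13, 13 and 9 peaks, of which 7, 10 and 6 had been annotated to SNORD15B, so by place G325E was not the higher list there.

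Against vector, 11 of 24 members were at least 2-fold lower in G325E and 0 higher (21.4% and 32.4% of 2067 genes), and 11 of 27 were at least 2-fold lower in wild-type and 1, RPS19, higher (17.3% and 26.3% of 2191 genes). The counts of members changed with the scaling. Without scaling to list length, 4 of 24 members were lower in G325E than vector (14.9% of genes) and 1 of 27 lower in wild-type than vector (2.97%), both close to the background. Scaling by the median ratio of shared genes gave 4 (15.3%) and 3 (4.88%). With lists cut to equal numbers of their longest peaks, 11 of 23 members were still lower in G325E than vector (23.3% of genes). In the same setting 3 of 27 were lower in wild-type than vector (17.3%).

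No peak was assigned in G325E to 4 members. RPS10, on the head, had 7 peaks in vector and 3 in wild-type, and RPS16, whose tail reaches the decoding centre, had 3 in each. RPS2, at the messenger entry, had 3 and 2. RPS27L had 0 peaks in vector and 1 in wild-type. Among genes with at least 3 wild-type peaks, 2 of 24 members (RPS10 and RPS16) and 36.4% of 2403 genes had 0 in G325E. Among those with at least 3 vector peaks it was 3 of 26 members and 23.7% of 1526 genes, so both shares of the members were below the background. Median coding coverage was 53.5% in vector and 62.3% in wild-type for the members. For other genes with a covered base in any list it was 2.80% and 11.3%. The background is thus not a like one, and the part of this in the difference was not tested. For RPS2 the 0 followed from the assignment, because 24, 26 and 14 peaks lay inside its transcript in vector, wild-type and G325E and all had been annotated to SNHG9, SNORA10 or, in vector and wild-type, NDUFB10. Most peaks inside RPS20 and RPS28 had likewise gone to SNORD54 and NDUFA7.

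Other members included RPS14, whose gene is deleted in the 5q- syndrome, and RPS24, which is mutated in Diamond-Blackfan anaemia. Their peak numbers were 14 (vector), 13 (wild-type) and 9 (G325E) for RPS14, and the rest of those described were RPS15 (12, 12 and 13), RPS15A (4, 2 and 1), RPS20 (1, 1 and 1), RPS21 (8, 15 and 11), RPS23 (9, 9 and 9), RPS24 (8, 7 and 5), RPS25 (6, 7 and 4), RPS27 (8, 7 and 5), RPS28 (3, 2 and 2) and RPS29 (4, 6 and 4). RPS15A, RPS20 and RPS28 had fewer than 5 peaks over G325E and wild-type, so the fold bound was not applied to them. None of the others was called between G325E and wild-type.

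Because 1 covered stretch can be split into several peaks, the coding bases under a peak were counted next, whichever gene or strand the peak had been given. Of the members' own peaks, 5.29% (vector), 8.81% (wild-type) and 9.74% (G325E) were listed on the strand opposite to the gene. Over the 28 members with a canonical transcript (13608 coding bases), 51.1% lay under a peak in vector, 58.0% in wild-type and 35.2% for G325E. Per member the percentage ran from 0 to 97.6% in vector (median 53.5%), from 8.84 to 95.7% in wild-type (median 62.3%) and from 0 to 96.1% in G325E (median 35.5%). Large-subunit genes were much the same, at 56.6%, 62.8% and 39.6% of coding bases. The 3028 other genes with a covered base had 6.99%, 12.1% and 7.99%, so their order of the lists differed from that of the members, with G325E above vector. Here and below, other genes are all genes but the members, so they include the large-subunit genes.

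Coverage was lower in G325E than in wild-type in 27 of 28 members, and RPS28 was higher by 0.48 percentage points. The median difference was -22.1 points, with a range from -67.9 to 0.48 points. Of the 27 members with at least 10% covered in 1 of these lists, 26 were lower in G325E by any amount (71.3% of 1882 genes) and 9 by at least 2-fold (44.6%). The members' share was thus above the background for any drop and below it for drops of 2-fold or more. RPS28 alone was higher (27.5% of genes) and 0 were at least 2-fold higher (15.2%). Against vector, G325E was lower in 23 of 28 members, with a median of -15.3 points (22 of 26 members with at least 10% covered, against 55.1% of 1505 genes). In that comparison 7 of the 26 were at least 2-fold lower (27.2% of genes), 3 were higher by any amount (43.6%) and 0 by 2-fold (28.1%). Wild-type was above vector in 19 of 28 members with a median difference of 2.82 points (18 of 27, against 76.8% of 1679 genes). Of the same 27, 9 were lower (19.8%), 2 at least 2-fold higher (36%) and 0 at least 2-fold lower (2.8%).

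**Figure D2:**
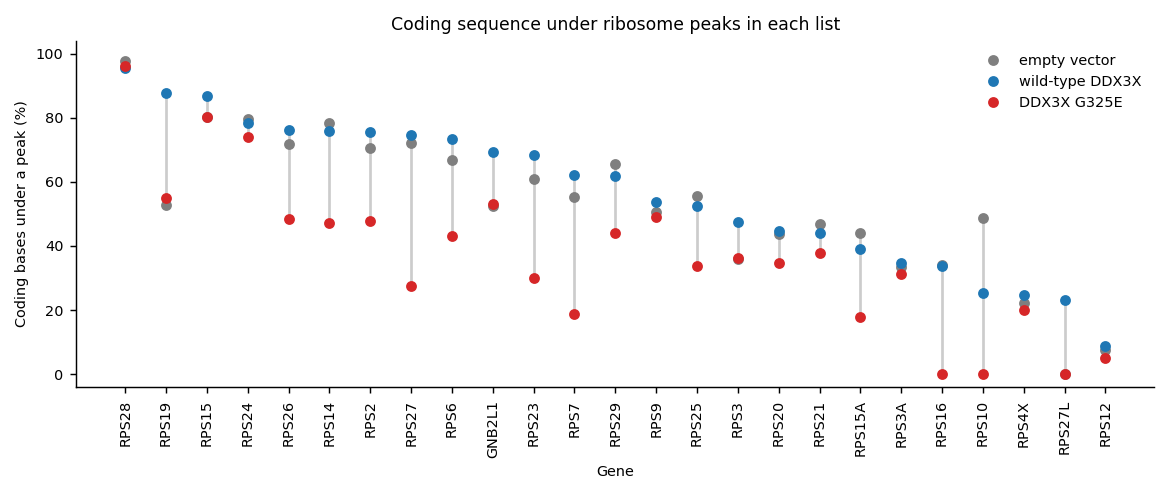
Percent of coding bases under a peak (vertical axis) for each of 25 small-subunit genes (horizontal axis, ordered by the wild-type value), with 1 point per list and a line joining the lowest and highest. The G325E points lie below wild-type in 24 of the 25 plotted genes and reach 0 in RPS10, RPS16 and RPS27L, whereas RPS28 lies above 95% in all lists.

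By place in the subunit, 13 head proteins had 50.2%, 56.6% and 35.2% of coding bases covered in vector, wild-type and G325E, and 14 proteins of the body and platform 53.6%, 60.3% and 36.4%. G325E was below wild-type in 12 of 13 head genes and 14 of 14 body genes. The median differences were -17.9 and -27.8 points. Against vector, 9 of 13 head genes were lower in G325E with a median of -8.96 points, and 14 of 14 body genes with a median of -23.1 points. Whether the groups differed was not tested.

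Several exons that both other lists covered had no peak at all in G325E, and are called lost here. The members had 122 coding exons with at least 10 coding bases, of which 73 were covered over at least 50% of their length in both vector and wild-type. Of these 73, G325E covered 47 (64.4%) over at least 50% as well, 10 in part and 16 (21.9%, in 11 genes) not at all. In other genes 40.4% of 2089 such exons were at 0 in G325E, and in large-subunit genes 27.4% of 117. The 16 exons had a mean GC content of 54.5% (SD 7.32) and the 47 kept exons 56.1% (SD 7.77), a smaller gap than in other genes, where exons at 0 had 52.5% (SD 8.71) and kept exons 61.2% (SD 7.87).

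RPS7, RPS27 and RPS23 kept their first coding exons and lost later ones in G325E. In RPS7, exon 2, which carries the start codon, was covered over 100% of its coding bases in all 3 lists. Exon 5 of this gene was covered by 98.5% in vector, 98.5% in wild-type and 0% for G325E, and exon 6 by 74.8%, 88.1% and 0%. The last covered codon of RPS7 was 185 in vector, 194 in wild-type, which is its final codon, and 43 in G325E. The stretches under those peaks are printed so that the kept and the lost part can be compared (GRCh37, plus strand).
RPS7 exon 2, under a peak in all lists, chr2:3623200-3623274: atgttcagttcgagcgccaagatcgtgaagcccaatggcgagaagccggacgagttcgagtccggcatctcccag
RPS7 exon 6, under a peak in vector and wild-type but not G325E, chr2:3627806-3627850: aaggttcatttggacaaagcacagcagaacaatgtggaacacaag

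The exon 2 stretch has 58.7% GC and the exon 6 stretch 42.2%. The printed exon 6 stretch is only part of that exon, whose 151 coding bases have 50.3% GC. After its last RPS7 peak the G325E list had no peak for 5198 kb, with 0 numbers missing. In that interval vector had 12 peaks and wild-type 14, on 2 genes each, of which 7 in either list lay outside RPS7.

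RPS6 differed, since the lost exon was the first with a covered base. Exon 2 was covered by 62.9% in vector, 80.3% in wild-type and 0% for G325E, and exon 5 by 96.2%, 97.5% and 86.1%. Both are given on the minus strand of GRCh37, with 48.8% GC in exon 2 and 44.7% in exon 5, so the lost stretch was not the poorer in GC.
RPS6 exon 5, under a peak in all lists, chr9:19376524-19376570: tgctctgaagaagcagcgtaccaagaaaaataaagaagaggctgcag
RPS6 exon 2, under a peak in vector and wild-type but not G325E, chr9:19379550-19379592: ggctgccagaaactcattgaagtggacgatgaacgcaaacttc

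RPS27, a zinc-finger protein of the platform, lost exon 3 (69.4% in vector and in wild-type, 0% in G325E) and exon 4 (96.2%, 96.2% and 0%) and kept exon 2 (67.9%, 73.4% and 57.8%). RPS23, which lies at the decoding centre, lost exon 3 (67.8%, 69.4% and 0%) and kept exon 2 (85.6%, 91.9% and 78.8%). RPS14, RPS15A and RPS2 each lost 1 further exon, and RPS10 and RPS16 each lost the 2 exons that vector and wild-type had both covered. In 25 members with a covered base in G325E, the last covered codon came at least 30 codons earlier than in wild-type in 8 (among them RPS2, RPS7, RPS14, RPS23, RPS25 and RPS27) and within 3 codons of it in 13. The same count was not made in other genes, so it has no background. In the last 25% of coding bases, coverage went from 58.0% in wild-type to 37.0% in G325E for the members. For other genes it went from 13.6% to 5.97%.

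**Figure D3:**
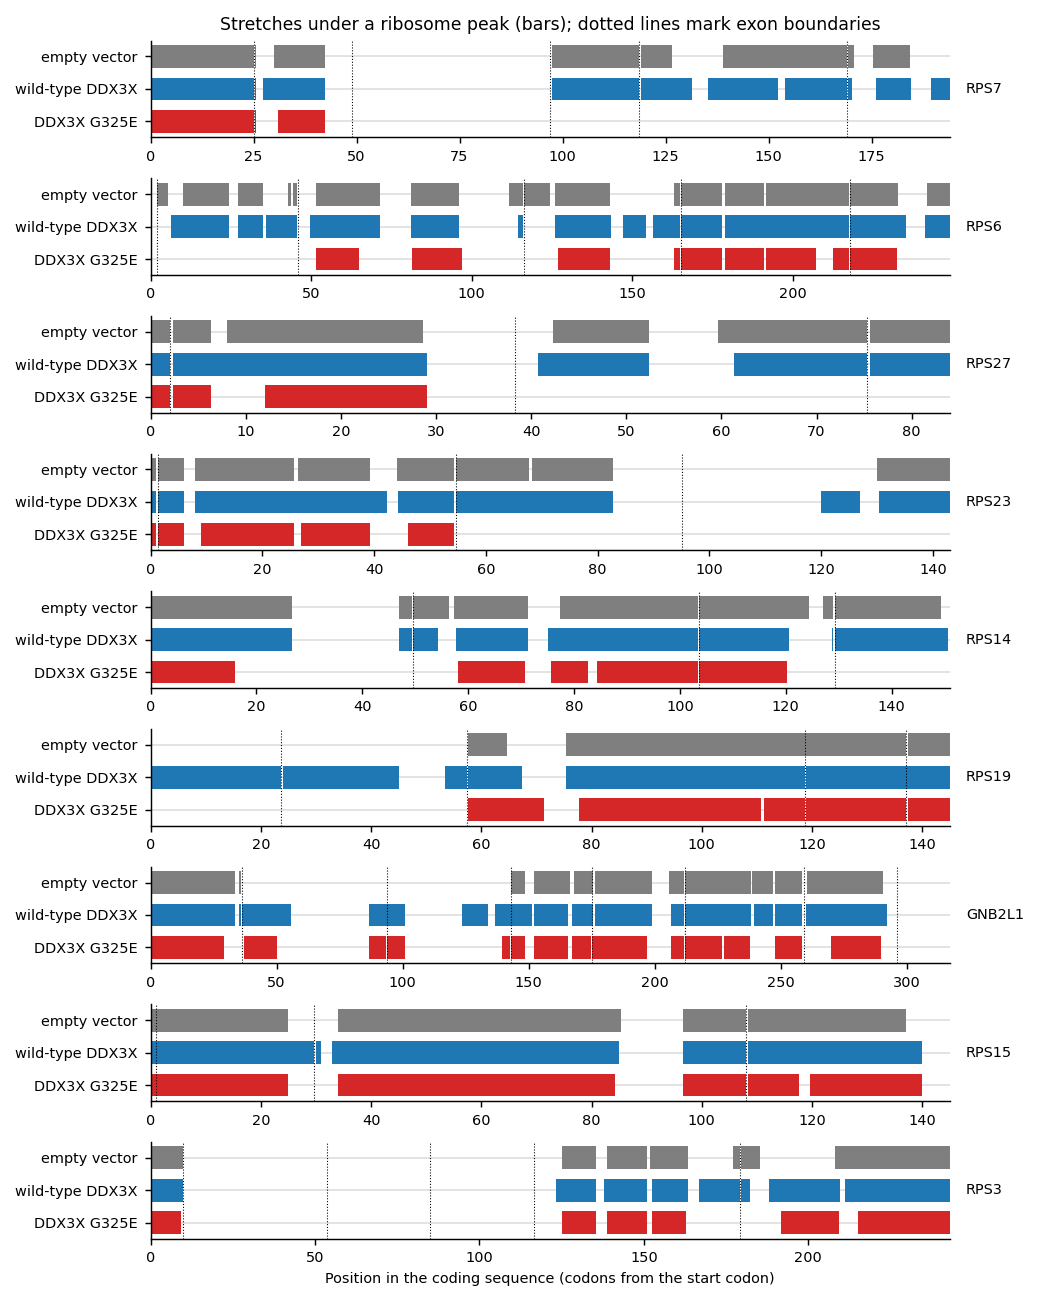
Stretches under a peak (bars) along the coding sequence, in codons from the start codon, for 9 small-subunit genes in the vector, wild-type DDX3X and DDX3X G325E lists, with dotted lines at exon boundaries. RPS7 and RPS27 lack G325E bars beyond codons 43 and 29, RPS19 has bars in its first coding exons in wild-type only, and RPS15 looks alike in all lists.

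Another set of exons was covered in wild-type only. At least 50% coverage in wild-type with 0 in both vector and G325E was seen in 8 of 122 exons (6.56%, in 4 members). It was seen in 4.89% of 184 large-subunit exons and in 0.622% of all 194615 coding exons of other genes. Of the exons of other genes 96.6% had no covered base in any list, against 23.8% of the members' exons. The 0.622% is thus a share of mostly uncovered exons and is not a like background for the members. In vector alone such coverage was seen in 1 exon, exon 2 of RPS10. In G325E alone it was seen in 1 of the 48 member exons that G325E covered over at least 50%. This was exon 2 of RPS12, with 14 coding bases, where vector and wild-type each had 1 number missing. The same count was 0 of 83 in large-subunit genes and 424 of 2092 (20.3%) in other genes. Other genes had less coverage in vector and wild-type, so this too is not a like background.

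RPS19 (chromosome 19, 42364325 to 42376993) held exons covered in wild-type only beside exons covered in all 3 lists. Exon 2 was covered by 98.6% and exon 3 by 74.3% in wild-type and by 0% in vector and G325E, while exon 5 was at 100%, 98.2% and 98.2% in vector, wild-type and G325E. The first RPS19 peak of vector and of G325E began at the same base, 42373102. The nearest earlier peak lay 547 kb before it in vector, with 1 number missing in between, and 557 kb before it in G325E, with 0 missing. In the same interval wild-type held 20 peaks on 3 genes, 5 of them outside RPS19. The stretch of exon 2 under a wild-type peak, with 50% GC, is printed because it was absent from both other lists (GRCh37, plus strand).
RPS19 exon 2, under a peak in wild-type only, chr19:42364846-42364915: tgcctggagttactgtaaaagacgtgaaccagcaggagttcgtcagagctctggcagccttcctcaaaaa

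In GNB2L1 the vector list differed, since it had no peak over exons 2 and 3, where wild-type covered 45.9% and 48.6% and G325E 34.3% and 21.6%.

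RPS15, RPS28, RPS24, RPS9, RPS3A and RPS4X differed little between lists. RPS15, a head protein next to the peptidyl site, had 80.2% of its coding bases covered in vector, 86.7% in wild-type and 80.2% for G325E. RPS28 had 97.6%, 95.7% and 96.1%, RPS24 had 79.7%, 78.5% and 74.1%, and RPS9 had 50.5%, 53.8% and 49.0%. RPS3A had 33.6%, 34.7% and 31.2% and RPS4X 22.3%, 24.6% and 20.2%. Some of these genes had exons that were empty in all 3 lists, exon 4 in RPS9, exons 5 and 6 in RPS3A and exons 1 to 5 in RPS4X. RPS15 and RPS28 had no empty coding exon in any list, and RPS24 lacked a G325E peak over the start codon, the 3 coding bases of its exon 1. RPS3, at 35.8%, 47.3% and 36.2%, had 0% over exons 2, 3 and 4 in each list between covered exons 1 and 5.

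In all, 29 of 122 coding exons (23.8%, in 16 members) had no covered base in any list. Since processed pseudogenes of these genes are common, exact copies of each 28-nt window inside the members' coding exons were counted in GRCh37. Another copy existed for 64.2% of windows, from 4.90% in GNB2L1 to 100% in, among others, RPS3A, RPS10, RPS26, RPS27 and RPS28. The median over exons was 68.0% in the 28 long enough exons at 0 in all lists and 66.7% in the 89 others, and 75.5% in the 15 lost only in G325E. The study speaks of uniquely mapped reads in its ribosome profiles. Yet exon 1 of RPS3A, where another copy existed for each window, was under a peak over 100% of its coding bases in all 3 lists. The part of such copies in the empty exons was not tested.

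RPS27 and RPS27L, whose coding sequences share 196 of 252 bases (77.8%), were unlike each other in the lists. RPS27 had 72.2%, 74.6% and 27.4% of its coding bases under a peak, and RPS27L 0%, 23.0% and 0%.

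Local base composition moved with coverage in each list. Where the 31 nt around a coding base held under 45% GC, 34.5% of member bases were covered in vector, 40.6% in wild-type and 18.5% for G325E. With 65% GC and over, 76.0%, 82.7% and 66.4% were covered. G325E was thus lowest in each GC class of the members. Other genes differed in the richest class, with 11.5% in vector, 18.9% in wild-type and 25.0% for G325E, while in the poorest class they had 2.88%, 5.63% and 0.677%. The members' coding peaks had a mean GC content of 52.2% in vector (42.7 to 61.7% at 1 SD either side, 110 peaks), 51.5% in wild-type (41.3 to 61.8%, 103 peaks) and 53.0% in G325E (43.8 to 62.3%, 72 peaks). Across the 28 members, the G325E minus wild-type difference in coverage had a Spearman rho of -0.13 with the GC content of the coding sequence, given as a description of points that share their libraries.

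**Figure D4:**
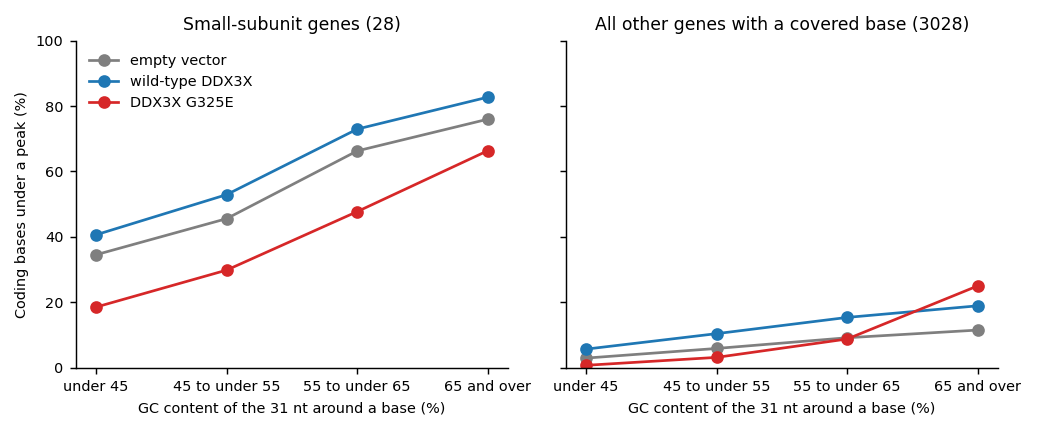
Percent of coding bases under a peak (vertical axis) by GC content of the 31 nt around each base (horizontal axis) for 28 small-subunit genes and for 3028 other genes with a covered base, 1 line per list. G325E is the lowest line in every class of the small-subunit genes (18.5 to 66.4%) and the highest line in the richest class of the other genes (25.0%).

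Along the coding sequence the first 25% was covered most in each list, by 62.0% in vector, 71.6% in wild-type and 45.4% for G325E. The next 25% had 38.9%, 45.5% and 25.8%, and the last 25% had 54.2%, 58.0% and 37.0%. G325E was the lowest list in each of these stretches. The share of coding peaks with their midpoint in the first 25% was 32.8% in vector (41 of 125, interval 25.2 to 41.4%), 31.9% in wild-type (38 of 119, 24.2 to 40.8%) and 33.3% in G325E (28 of 84, 24.2 to 43.9%), with intervals that overlapped almost wholly. Other genes had a steeper start in G325E, at 14.5% in the first 25% and 5.97% in the last, against 13.2% and 13.6% in wild-type.

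**Figure D5:**
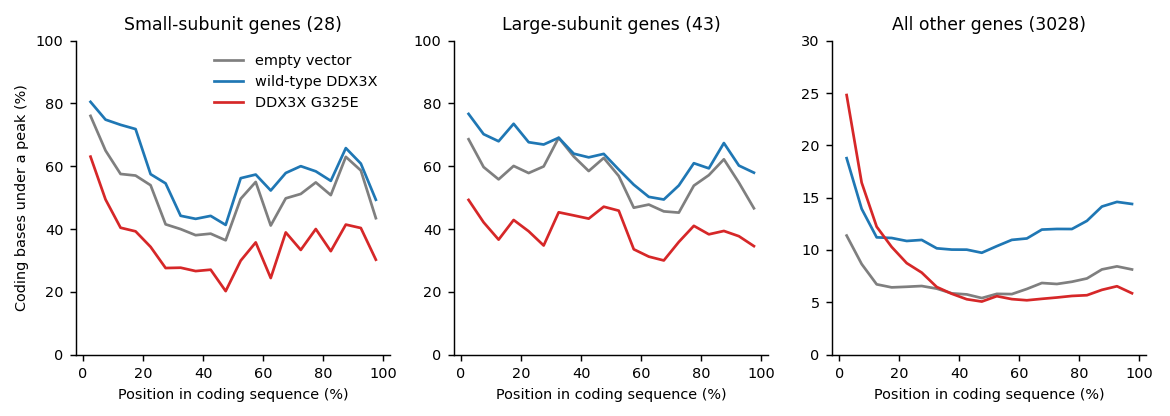
Percent of coding bases under a peak (vertical axis, with its own scale for all other genes) along the coding sequence in 20 equal bins (horizontal axis, percent of its length) for 28 small-subunit, 43 large-subunit and 3028 other genes. The other genes include the large-subunit genes. G325E lies below the other lists along both ribosomal panels, and among other genes it is the highest list only near the start.

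In the authors' region classes, coding exons held 52.9% of member peaks in vector (110 of 208), 45.4% in wild-type (103 of 227) and 46.8% in G325E (72 of 154). The promoter-TSS class held 21.2% (16.2 to 27.2%), 26.9% (21.5 to 33.0%) and 27.3% (20.9 to 34.8%). In other genes that class held 23.2%, 21.2% and 34.8%, where G325E stood well above wild-type, while the members' intervals for these lists overlapped. By midpoint, 11 of 44 such member peaks fell on the canonical 5′-UTR in vector, 16 of 61 in wild-type and 13 of 42 in G325E, and 21, 32 and 19 lay outside the canonical transcript.

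Of the members' peaks in the 5′-UTR, coding or 3′-UTR classes, the 5′-UTR class held 4.31% in vector (5 of 116, interval 1.85 to 9.69%), 8.77% in wild-type (10 of 114, 4.83 to 15.4%) and 5.19% in G325E (4 of 77, 2.04 to 12.6%). A difference between lists was not detectable at these numbers. Counting promoter-TSS peaks as 5′-UTR and those at transcript ends as 3′-UTR gave 28.3%, 37.0% and 37.1%.

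Introns held 32 (vector), 32 (wild-type) and 27 (G325E) member peaks, of which 19, 26 and 15 lay in intron 1. Their mean GC content was 71.4% (SD 11.3), 72.7% (SD 8.71) and 74.3% (SD 10.6), well above that of the coding peaks. RPS7 had 4, 7 and 6 of them, RPS15 had 5, 5 and 6, and RPS19 had 1, 6 and 2.

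The peaks that remained in G325E were mostly at places also listed for the other libraries. Of the 154 G325E member peaks, 87.0% (interval 80.8 to 91.4%) overlapped a wild-type peak and 81.8% (75.0 to 87.1%) a vector peak, and 73.6% of wild-type peaks (67.5 to 78.9%) overlapped a vector peak. In the other direction, 55.1% of wild-type and 57.7% of vector member peaks overlapped G325E. For other genes 46.9% of G325E peaks overlapped wild-type and 35.0% vector, and the members' intervals lay above those values. Wild-type peaks covered 58.0% of the members' coding bases and 12.1% of those of other genes. A peak on a member thus had more covered bases to meet, and the part of this in the overlap was not tested. Large-subunit genes stood close to the members at 79.9% and 77.7%.

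At 10 places on 8 members the same start and end were listed in all 3 lists, which was 6.49% of G325E member peaks and 1.57% of the G325E peaks of other genes. They included 32 bases of an exon of GNB2L1, 38 bases of an exon of RPS6, 20 bases of RPS3A and 29 bases of RPS23.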

How the data were processed

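The authors deposited 1 list of ribosome peaks per library, with positions as whole numbers (not counts or intensities), strand, HOMER annotation and nearest gene. Their methods state that the peak finder was the one used for their CLIP-seq data, which required a minimum base coverage and a manual review. Adapter trimming, alignment to NCBI Build 37 (hg19) with transcript databases and duplicate removal are described for CLIP-seq. The submitters' processing notes name cutadapt and BWA 0.5.5. The lists hold no depth.

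Here a peak went to the gene of its RefSeq id, or else to the listed gene name. Coding positions came from canonical transcripts of GENCODE release 44 lifted to GRCh37. Intervals are Wilson's at a level of 0.95, and 3 peaks correspond to 0.0267%, 0.0151% and 0.0191% of the vector, wild-type and G325E lists. Fold bounds used log2 ratios of peak number plus 0.5, scaled by list total, for genes with at least 5 peaks over both lists. Of 328 member peaks with coding midpoints, 96 started 1 base inside an exon and 0 at its first base, while 101 ended at its last base, so deposited starts appear 1 base late. They were used as given. Peaks of no length (1, 4 and 1 on members) counted as 1 base.

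Scripts were checked on simulated data. Alternatives changed peak length, strand, assignment, region classes, scaling, pseudocount and minimum. Lists compared with the members were head and body proteins, large-subunit genes, other TOP mRNAs and assembly factors. Members were to be named with their peak numbers, but some genes are not reported here, and counts and pooled values still include the members among them. Members with the most peaks, the largest and smallest G325E to wild-type ratios (4 each), 0 peaks in a list, a start-codon peak or a paralog are described in full. Members and lists were chosen with earlier results of these data known, and further genes were picked after their exon values were seen. Python 3.11.15, numpy 2.4.6, pandas 2.3.3, statsmodels 0.14.6, pysam 0.24.0 and matplotlib 3.10.9 were used.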

Additional observations from a re-analysis of the deposited data

Results flagged for a closer look

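Signals in data that the comparisons did not use were present in each list. Pseudogenes of small-subunit genes, 6 in number, held 16 (vector), 22 (wild-type) and 16 (G325E) peaks. RPS2P32 had 6, 8 and 5 of these and RPS26P11 had 5, 6 and 6. Over RPS18, a small-subunit gene whose peaks had been annotated to B3GALT4, 6, 5 and 6 were listed. Each of these exceeds 3 peaks, the limit that a count of 0 allows. With 1 library per construct, no list could be compared with replicates of its own group.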

How the results depend on the processing

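No paired analysis was possible because each construct had 1 library, and leaving out replicates was likewise not possible. Of 216 values recomputed under the alternatives, 172 stayed within their interval or within 1.5 times and 44 moved. Values are given for vector, wild-type and G325E in that order. The coding bases under a peak became 49.0%, 56.2% and 33.3% with peaks of at least 20 bp, 47.7%, 54.3% and 32.7% with peaks on the gene's strand alone, and 53.2% (wild-type) and 32.2% (G325E) with lists cut to equal numbers of their longest peaks. G325E was the lowest list in each of these. The share of list peaks became 2.42%, 1.45% and 1.30% on the gene's strand. The 5′-UTR share became 9.93%, 14.0% and 14.1% by canonical regions, and 28.3%, 37.0% and 37.1% with promoter-TSS and transcript-end classes counted as UTRs.

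The counts of members at least 2-fold apart moved most. The share of all genes called stands in brackets. Higher in G325E than wild-type were 1 with peaks of at least 20 bp (25.0%) and 1 with equal numbers of longest peaks (25.9%). Lower in G325E than wild-type were 1 with peaks of at least 20 bp (23.6%) and 1 by gene name alone (28.2%), so with the longer peaks 1 stood on either side. Lower in G325E than vector were 4 with median ratios (15.3%) and 4 without scaling (14.9%). That count stayed at 11 with equal numbers of longest peaks (23.3%) and with peaks of at least 20 bp (18.0%). Higher in wild-type than vector were 2 with median ratios (31.9%) and 2 without scaling (36.1%), and 0 with peaks of at least 20 bp (22.9%), on the gene's strand (24.9%) or with a pseudocount of 1 (25.2%). Lower in wild-type than vector were 3 with longest peaks (17.3%), 3 with median ratios (4.88%), 1 without scaling (2.97%) and 6 with a minimum of 10 peaks (16.5%). Thus, without scaling, 2 of 27 members were higher and 1 lower in wild-type, too few to read a balance from. With scaling it was 1 higher and 11 lower. With the same number of longest peaks, 79.4% of G325E peaks overlapped wild-type and 82.8% of wild-type peaks overlapped vector.

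Further alternatives were chosen after seeing the data. Assigning peaks by place on the canonical transcripts gave shares of 2.15%, 1.38% and 1.22%, coding bases of 47.1%, 53.5% and 32.8%, and 0 members higher in wild-type than vector (26.3%). Moving starts by 1 base gave 52.2% (vector) and 59.1% (wild-type) of coding bases. Leaving out RPS19 gave 57.0% in wild-type and 0 members higher in wild-type than vector (26.3%). The cause of these shifts was not tested beyond what each setting removes.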

Other observations

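RPS18 lay outside the rule through its annotation to B3GALT4, and its coding sequence was covered by 61.4% (vector), 65.8% (wild-type) and 58.8% (G325E). RPS27A, which encodes ubiquitin fused to a small-subunit protein, had 16.2%, 20.7% and 0%. RPS13 and RPSA had no peak on their transcripts in any list. RPS19BP1 had 5 peaks in the wild-type list and 0 in the others.

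Other mRNAs with a TOP start, which encode elongation factors, initiation factors and related proteins, came to 12 genes with a peak in the vector and wild-type lists and 6 with a G325E peak. They held 1.01%, 0.663% and 0.427% of the lists, in the order seen for the members. Assembly factors of the small subunit, 9 genes in all, held 0.143% of the vector list (on 4 genes), 0.261% of the wild-type list (on 9) and 0.108% of the G325E list (on 3), so here wild-type was highest.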
